A study of Mus musculus with 15 samples.

Results

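The genes of the contractile apparatus and surface of mural cells were examined in sorted stromal, endothelial and epithelial cells. The list held 9 genes (Acta2, Tagln, Myl9, Cnn1, Myh11, Des, Tpm2, Cspg4 and Mcam), and members were found by their symbol in a table of RPKM, read counts scaled for the length of a transcript and the depth of a library, with the values of all transcripts of a symbol added together. Of the 9 genes, 8 were listed among 10222 symbols. Cnn1, which encodes calponin of smooth muscle, was absent from the table and was not analysed here.

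All 15 libraries came from C57BL/6 mice that carry an IL33-citrine reporter, heterozygous according to the series' design, in which a fluorescent protein marks cells that use the Il33 gene. No treatment was given by the labels, and every population carried the same reporter. Il33+ WAT-MSC and Il33- WAT-MSC were mesenchymal stromal cells of mesenteric white adipose tissue (WAT), sorted as PDGFRα+CD34+Sca1+podoplanin+ cells without CD45, EpCAM, CD31 or CD24, and then split by citrine. Lung Il33+ MSC were the corresponding lung cells. WAT endothelial cells were sorted on CD31 without CD45 or EpCAM, and lung epithelial cells on EpCAM without CD45. Each population had 3 libraries from independent experiments, spread over 2 sequencing lanes. The age and sex of the mice, and how many were used for a library, are not given in the sources used here. No listed member was used as a marker in any gate. The MSC gate still removed cells without PDGFRα, CD34, Sca1 or podoplanin, whether mural or not.

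Mural cells wrap blood vessels. Smooth muscle cells surround arteries, arterioles and veins, whereas pericytes sit on capillaries and share their basement membrane with the endothelium. Smooth muscle contracts when myosin, switched on by phosphorylation of its regulatory light chain, pulls on filaments of smooth muscle actin. Many genes of this apparatus are switched on by serum response factor (SRF) and its myocardin family partners, which bind a DNA element known as the CArG box. Pericytes are commonly recognised by the proteoglycan NG2 (Cspg4), the adhesion molecule CD146 (Mcam) and desmin (Des), although endothelial cells also make Mcam.

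Each member had its highest mean in the WAT endothelial cells. The sum over the 8 genes was 91.9, 83.6 and 89.9 RPKM in the 3 endothelial libraries, against 21.4 to 24.7 RPKM in Il33+ WAT-MSC, 13.5 to 23.9 in Il33- WAT-MSC, 21.6 to 36.9 in lung Il33+ MSC and 5.66 to 15.02 in lung epithelial cells. For 6 members (Acta2, Tagln, Myh11, Des, Cspg4 and Mcam) the lowest endothelial library stood above the highest of the 12 other libraries. Over the whole table, 3.75% of symbols showed that order, and 20.2% of symbols had their highest mean in WAT endothelial cells. In bulk RNA of sorted cells, a few cells of a mural type among many others cannot be told apart from a low level in every cell.

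**Figure D1:**
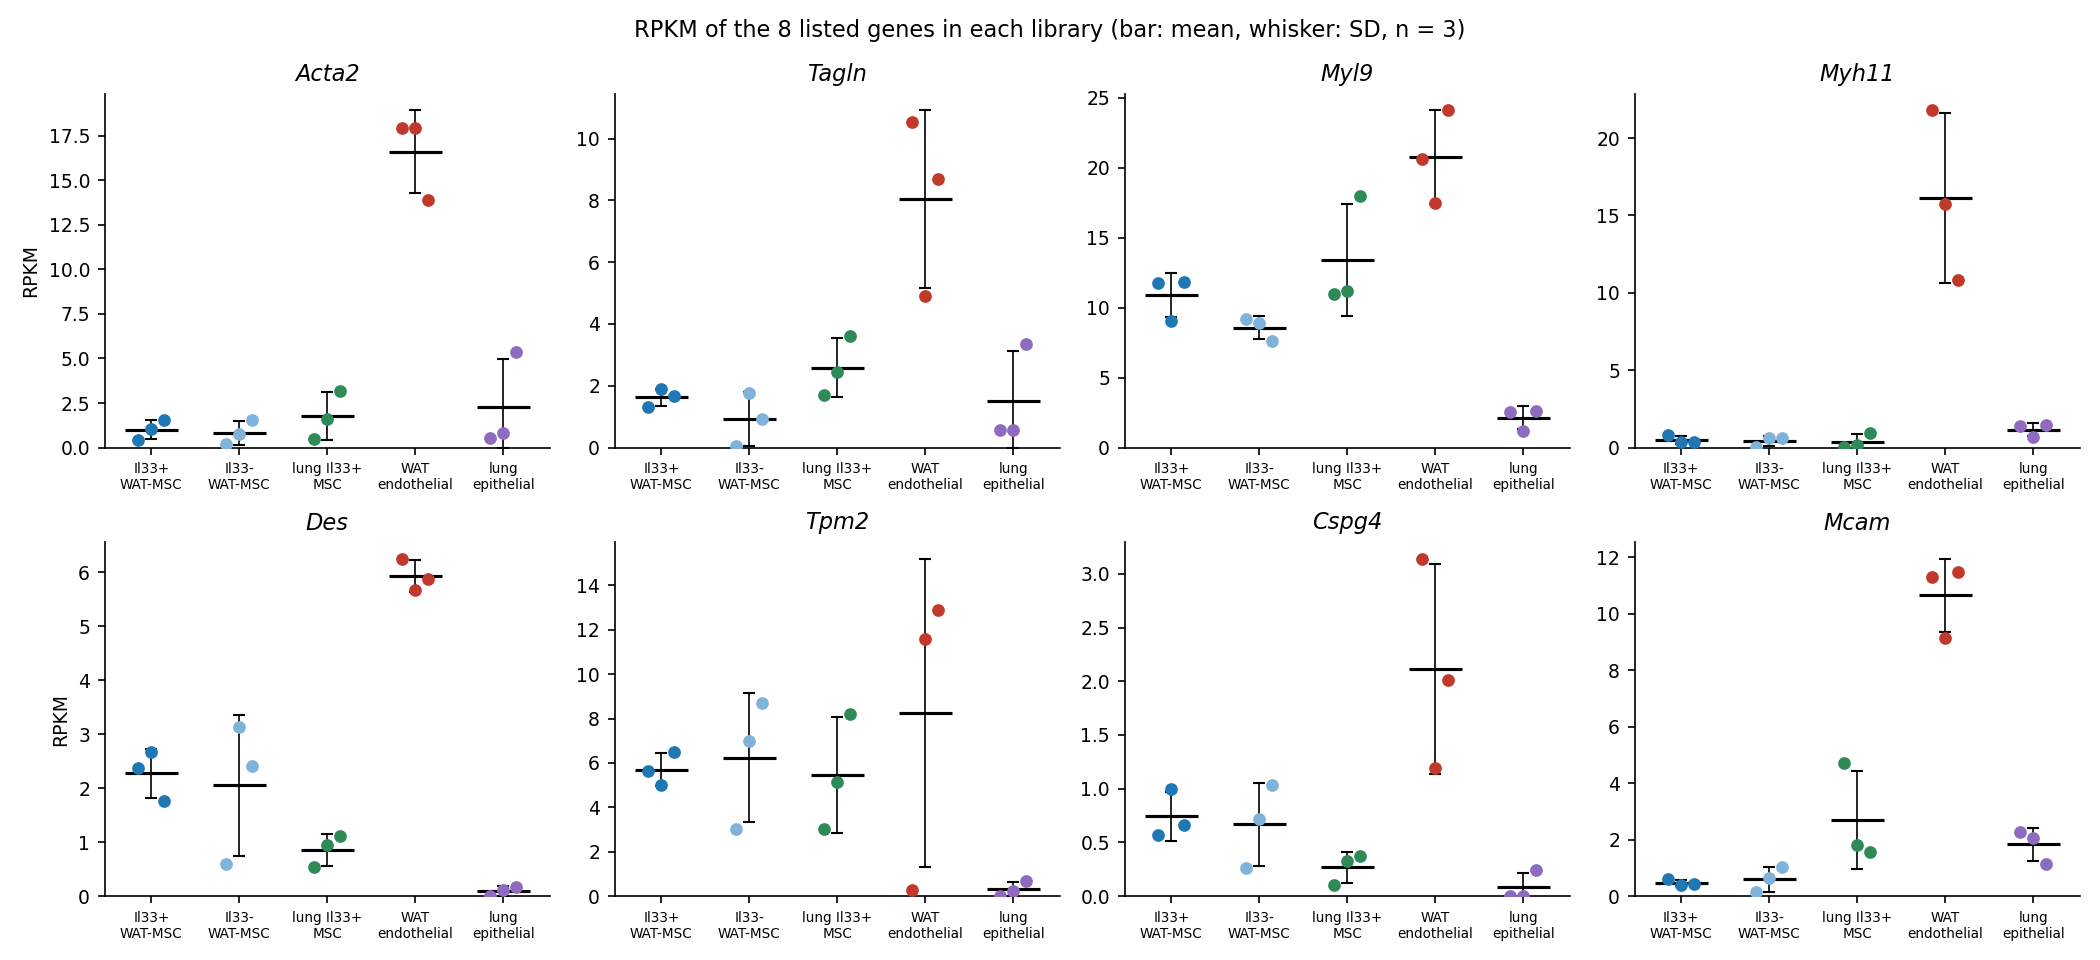
RPKM (linear axes from 0, a different scale in each panel) of the 8 listed genes in the 15 libraries. Points are libraries in order of replicate number, bars are means and whiskers are SDs (n = 3, lower whisker stopped at 0). The red endothelial points lie above all others for Acta2, Tagln, Myh11, Des, Cspg4 and Mcam, and 1 endothelial library lies near 0 for Tpm2.

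The sorts were checked on their own markers. Pecam1, which encodes CD31, reached 145 to 198 RPKM in the endothelial libraries and at most 19.1 RPKM elsewhere, and the 13 endothelial markers summed to 759 to 947 RPKM there and to 15.96 to 105 RPKM elsewhere. Il33 was 38.7 to 78.5 RPKM in the citrine-positive and 4.31 to 6.76 RPKM in the citrine-negative WAT-MSC. Libraries held 42711843 to 60773158 alignments, and at the median of these 1 RPKM stands for about 108 reads of Acta2, 59.8 of Myl9 and 431 of Cspg4. These numbers use the lengths of the matched transcripts in the GENCODE annotation, which can differ from the RefSeq lengths behind the RPKM. In endothelial replicate 1, 10.9% of transcripts were at 0 RPKM, against 3.78% and 2.58% in replicates 2 and 3. Libraries of the other populations ran from 1.87% to 7.41%, the highest being Il33- WAT-MSC replicate 1. Summed markers of other cells were not at 0 in the endothelial libraries. The 10 stromal markers summed to 2102, 2453 and 4285 RPKM there, against 6217 to 8051 in Il33+ WAT-MSC and 4516 to 6306 in Il33- WAT-MSC. The 11 listed mesothelial markers summed to 59.8 RPKM in endothelial replicate 1 but to 262 and 288 RPKM in replicates 2 and 3. The 8 listed leukocyte markers summed to 254 to 450 RPKM in endothelial cells and to 13.4 to 89.0 RPKM in the WAT-MSC. Cd74, a gene of antigen presentation, gave 272, 263.5 and 185.6 RPKM of the endothelial sums, and the other 7 markers summed to 12.3, 187 and 68.2 RPKM in the 3 endothelial libraries and to 10.54 to 43.6 RPKM in the WAT-MSC. Of 22 striated muscle markers only Tnni3 was listed, at 0 to 0.43 RPKM in endothelial cells, and none of 6 Schwann cell markers was listed. The 8 epithelial markers summed to 71.7 to 119 RPKM in endothelial cells, beside 56.5 to 144 RPKM in the WAT-MSC. Most of this was Scgb1a1, a secreted protein of airway cells, and the other 7 summed to 0.79 to 14.03 RPKM in endothelial cells and to 0.41 to 10.25 RPKM in the WAT-MSC. Whether the members' levels came from these other cells was not tested.

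The regulatory element shared by many contractile genes was read in the promoters of the members. RefSeq windows of build GRCm38.p6, from 250 bases before to 50 bases after the start of the gene, were at hand for 7 members (Des, Myl9, Tpm2, Cnn1, Mcam, Cspg4 and Acta2). The CArG box was searched as CC, then 6 bases of which at least 5 are A or T, then GG, a pattern that reads the same on both strands. It was found in 9.98% of 32851 promoter windows, and with all 6 core bases A or T in 1.63%. Acta2 and Myl9 each held 2 matches and the other 5 members none in this window. The matches are shown with 10 flanking bases on either side, in capitals, on the strand of the gene. They begin 84 and 34 bases before the RefSeq start of Acta2, and 161 and 99 bases before that of Myl9. Only the distal Myl9 match has a core made wholly of A and T. In the GENCODE annotation the Acta2 stretches fall inside the first exon of a longer transcript, and the Myl9 stretches lie in no annotated exon.
Acta2 distal, chr19:34255438-34255467, minus strand: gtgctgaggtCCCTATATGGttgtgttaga
Acta2 proximal, chr19:34255388-34255417, minus strand: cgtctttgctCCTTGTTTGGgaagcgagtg
Myl9 distal, chr2:156775293-156775322, plus strand: caagcagaggCCTAATAAGGccgggctggc
Myl9 proximal, chr2:156775355-156775384, plus strand: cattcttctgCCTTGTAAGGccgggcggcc
These stretches are a description of sequence, and nothing in these data measures binding to them.

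The filaments come first. Acta2 (chr19:34241090-34255590, minus strand, mm10) encodes smooth muscle α-actin, the actin of vascular smooth muscle. It stood at 17.96, 17.92 and 13.91 RPKM in WAT endothelial cells. It stood at 0.44, 1.04 and 1.53 RPKM in Il33+ WAT-MSC and at 0.18, 0.75 and 1.53 RPKM in Il33- WAT-MSC. The WAT endothelial libraries did not overlap with any WAT-MSC library, whereas both WAT-MSC populations covered nearly the same range. Lung Il33+ MSC showed 0.47, 1.63 and 3.16 RPKM, and lung epithelial cells 0.56, 0.83 and 5.36 RPKM, so that 1 library of each lung population lay above the rest of its group. The mean of the endothelial cells was 16.5 times that of Il33+ WAT-MSC and 20.2 times that of Il33- WAT-MSC.

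Tagln (chr9:45929619-45936058, minus strand) encodes transgelin, also called SM22α, which binds actin filaments in smooth muscle. Its endothelial values were 10.5, 4.90 and 8.69 RPKM. It was listed at 1.32, 1.89 and 1.66 RPKM in Il33+ WAT-MSC, and at 0.04, 1.78 and 0.92 RPKM in Il33- WAT-MSC. The endothelial libraries did not overlap with either WAT-MSC population, whereas both WAT-MSC populations overlapped with each other, and replicate 1 of Il33- WAT-MSC was far below its partners. Lung Il33+ MSC gave 1.71, 2.43 and 3.60 RPKM and lung epithelial cells 0.57, 0.58 and 3.36 RPKM. Replicate 3 of the lung epithelial cells was thus the high library for both Acta2 and Tagln. Tagln shares 108 bases with Pcsk7 on the other strand, and 3627 bases with an antisense gene. The counting is not stated to use strand, so a part of these reads could belong to either gene.

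Tpm2 (chr4:43514711-43523765, minus strand) encodes β-tropomyosin, which lies along the actin filament. Endothelial replicate 1 had 0.26 RPKM, while replicates 2 and 3 had 11.6 and 12.9 RPKM. The WAT-MSC libraries held 5.62, 5 and 6.48 RPKM when Il33+ and 3.02, 6.97 and 8.70 RPKM when Il33-. The endothelial libraries therefore lay on both sides of every WAT-MSC library. Lung Il33+ MSC had 3.02, 5.16 and 8.19 RPKM, within the range of the WAT-MSC, and lung epithelial cells had 0.02, 0.24 and 0.67 RPKM, below all stromal libraries.

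Myosin is the motor of the apparatus. Myh11 (chr16:14194535-14291372, minus strand) encodes the myosin heavy chain of smooth muscle and is among the most restricted markers of mature smooth muscle. It stood at 21.8, 15.7 and 10.85 RPKM in WAT endothelial cells. The 12 other libraries lay between 0.02 and 1.43 RPKM, with a highest group mean of 1.16 ± 0.436 RPKM (SD, n = 3) in lung epithelial cells. The mean of the endothelial cells was 31.8 times that of Il33+ WAT-MSC.

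Myl9 (chr2:156775420-156781658, plus strand) encodes a regulatory light chain of myosin that non-muscle cells also use. It was 20.6, 17.5 and 24.2 RPKM in endothelial cells. Stromal cells also used it, at 11.8, 9.07 and 11.85 RPKM in Il33+ WAT-MSC, at 9.18, 8.88 and 7.65 RPKM in Il33- WAT-MSC and at 11, 11.2 and 18 RPKM in lung Il33+ MSC. Endothelial and WAT-MSC libraries did not overlap, but lung Il33+ MSC replicate 3 reached above the lowest endothelial library. Lung epithelial cells, at 2.55, 1.17 and 2.64 RPKM, lay below every other library.

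Des (chr1:75360329-75368579, plus strand) encodes desmin, the intermediate filament of muscle cells and pericytes. It was 6.25, 5.67 and 5.88 RPKM in endothelial cells, a narrow group with an SD of 0.294 RPKM (n = 3). It was 2.38, 2.67 and 1.77 RPKM in Il33+ WAT-MSC and 0.60, 3.13 and 2.42 RPKM in Il33- WAT-MSC. Lung Il33+ MSC showed 0.53, 0.94 and 1.11 RPKM and lung epithelial cells 0 to 0.17 RPKM. Des overlaps an antisense gene over 368 bases.

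The surface genes of pericytes closed the list. Cspg4 (chr9:56865033-56899870, plus strand), which encodes NG2, was the lowest member in endothelial cells, at 3.14, 1.19 and 2.01 RPKM. It was 0.57, 1.00 and 0.66 RPKM in Il33+ WAT-MSC. Il33- WAT-MSC held 0.26, 0.72 and 1.03 RPKM, against 0.10 to 0.37 RPKM in lung Il33+ MSC and 0 to 0.24 RPKM in lung epithelial cells. The lowest endothelial library and the highest WAT-MSC library were separated by a narrow gap. Mcam (chr9:44134469-44142727, plus strand), which encodes CD146, stood at 11.3, 9.16 and 11.5 RPKM in endothelial cells. The WAT-MSC had 0.60, 0.38 and 0.42 RPKM when Il33+, and 0.14, 0.65 and 1.02 RPKM when Il33-. Lung Il33+ MSC had 4.71, 1.81 and 1.56 RPKM, and lung epithelial cells 2.28, 2.06 and 1.15 RPKM, so Mcam was the only member for which both lung populations lay above both WAT-MSC populations in every library.

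The order of the group means was otherwise little resolved. Below the endothelial cells, the libraries of neighbouring populations overlapped at every step for Acta2, Tagln, Myh11 and Cspg4. Lung epithelial cells were set apart from the next population without overlap for Myl9, Des and Tpm2. For Myl9 and Tpm2 the endothelial cells overlapped with the population next below them.

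WAT endothelial cells were compared with Il33+ WAT-MSC to ask how far the vascular sort differed from the adipose stroma. Fold changes were fitted with limma on log2(RPKM + 1), which understates changes of low genes, and a gene passed at an adjusted p under 0.05. All 8 listed members passed the filter of at least 1 RPKM in at least 3 of the 6 libraries. Acta2, Myh11 and Mcam were higher in endothelial cells, 3 of 8, where 3.9% of the 8665 genes tested passed, 3.34% higher and 0.565% lower. Myh11 and Mcam entered only through the endothelial libraries, since neither reached 1 RPKM in any Il33+ WAT-MSC library, so this count is a description. The log2 fold changes were 3.16 ± 0.38 (SE) for Acta2 with a limma adjusted p of 0.00223, 3.47 ± 0.41 for Myh11 with 0.00206, and 2.99 ± 0.37 for Mcam with 0.00272. Each of the 3 passed under all 14 alternative settings, including the fit with no filter. The difference was also present within each lane, at 3.47 and 2.56 for Acta2, 3.64 and 3.12 for Myh11 and 2.91 and 3.14 for Mcam (log2, lanes 1 and 2). Lane 2 held 1 library of each population, so its value has no replicate. Without endothelial replicate 1, the same 3 members passed.

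The other 5 members did not pass in this comparison. Tagln had a log2 fold change of 1.74 ± 0.41 and a limma adjusted p of 0.0556, Des 1.09 ± 0.37 with 0.176, Myl9 0.87 ± 0.29 with 0.174, and Cspg4 0.80 ± 0.41 with 0.404. The libraries of these genes did not overlap, but how many of all genes tested showed this was not counted. Tagln passed in the fit of all 15 libraries, with an adjusted p of 0.0221, and under the stricter filter, with 0.0462. Tpm2 gave -0.14 ± 0.83. Without endothelial replicate 1 its log2 fold change was 0.99 ± 0.28 with a limma adjusted p of 0.0972. The members' median log2 fold change was 1.41, beside -0.18 over all genes tested.

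Against Il33- WAT-MSC, which asks the same of the citrine-negative stroma with the same 3 endothelial libraries, 4 of 8 members were higher (Acta2, Tagln, Myh11 and Mcam), where 5.69% of the 8713 genes tested passed, 4.1% higher and 1.6% lower. Of these 4, Myh11 reached 1 RPKM in no Il33- WAT-MSC library and Acta2, Tagln and Mcam in 1 each, so they entered the test through the endothelial libraries and the count is again a description. The log2 fold change was 3.33 ± 0.42 for Acta2, 3.57 ± 0.43 for Myh11 and 2.89 ± 0.41 for Mcam, with limma adjusted p of 0.00196, 0.00165 and 0.00384, and all 3 passed under all 14 alternatives. Tagln gave 2.30 ± 0.50 with a limma adjusted p of 0.0301, but it passed in 7 of 14 alternatives. It was lost without endothelial replicate 2 (adjusted p = 0.0567) or 3 (0.0661), without Il33- WAT-MSC replicate 1 (0.115), 2 (0.0583) or 3 (0.106), with no filter (0.0668) and with a pseudocount of 0.1 (0.103). Myl9, at 1.18 ± 0.30 with an adjusted p of 0.0562, passed in 5 of 14 alternatives, among them the one without endothelial replicate 1 (0.0458). Des gave 1.29 ± 0.46, Cspg4 0.88 ± 0.43 and Tpm2 -0.17 ± 0.86, and none of the 3 passed, although Des did in the fit of all 15 libraries (adjusted p = 0.0197). For Tpm2 the value was 0.97 ± 0.41 without endothelial replicate 1. The members' median was 1.80, beside -0.17 over all genes tested. Median-ratio scaling of the libraries moved the median of all genes from -0.18 to -0.03 and from -0.17 to -0.03 in these comparisons, and under it Acta2 was at 3.30 and 3.48, Myh11 at 3.58 and 3.70, and Mcam at 3.09 and 3.02.

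**Figure D2:**
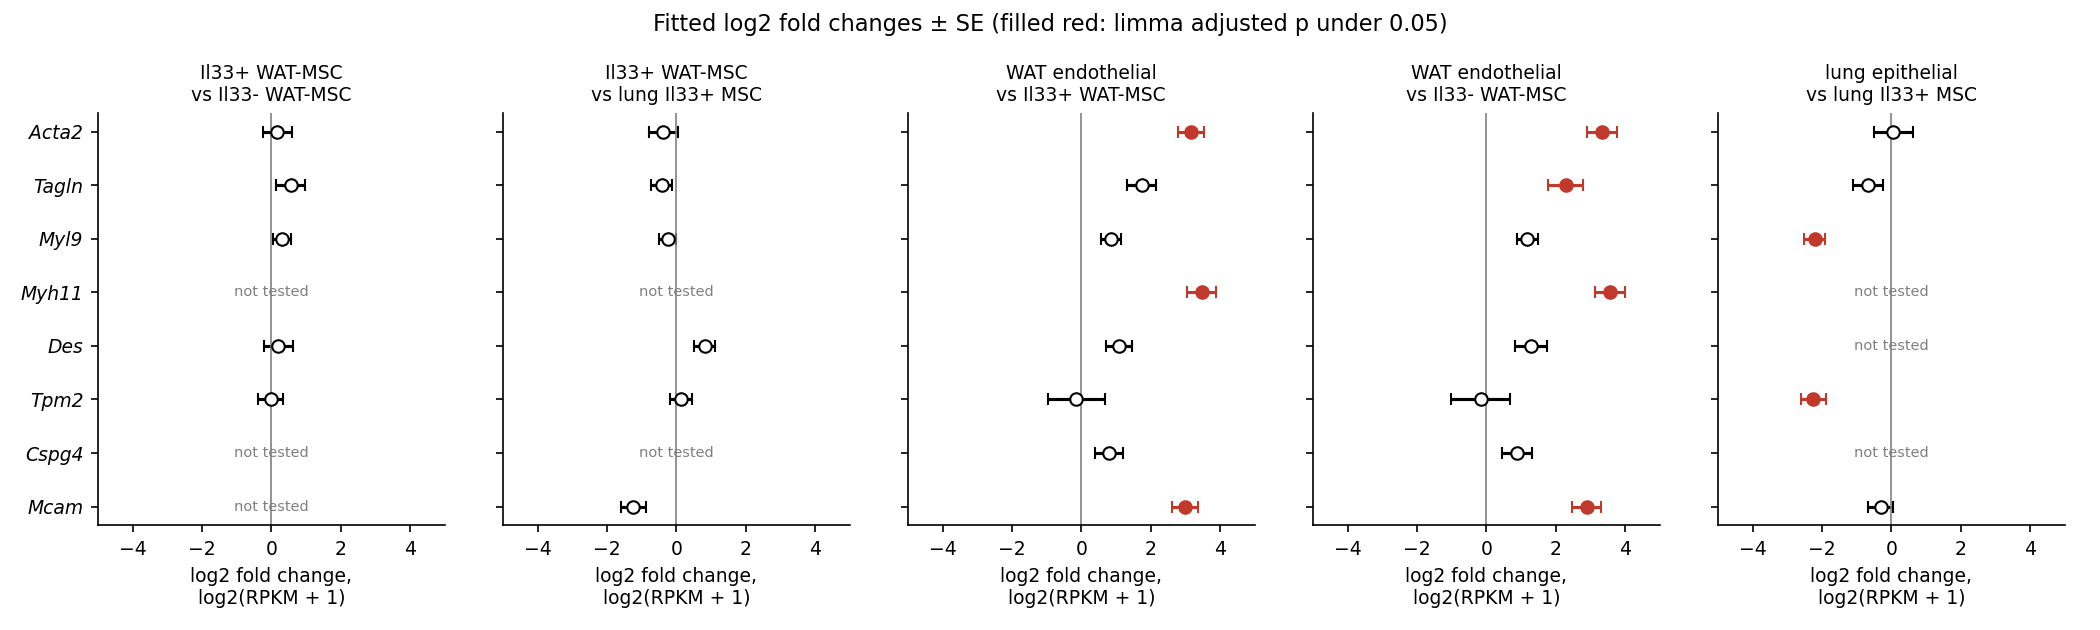
Log2 fold change (x axis, log2(RPKM + 1)) of each listed gene in the 5 comparisons, with whiskers of 1 SE. Filled red points passed at a limma adjusted p under 0.05, open points did not, and genes under the filter are marked as not tested. Acta2, Myh11 and Mcam are filled in both endothelial comparisons, and Tpm2 has the widest whiskers there.

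Within the adipose stroma, Il33+ and Il33- WAT-MSC were compared to see whether the members differed between cells with and without citrine. None of the 5 members tested passed, where 1.57% of the 8448 genes tested passed in limma, 0.923% higher and 0.651% lower, and none reached an unadjusted p under 0.05. The log2 fold changes ran from -0.02 ± 0.36 for Tpm2 to 0.56 ± 0.42 for Tagln, with a median of 0.20 beside -0.01 over all genes tested. Myh11, Cspg4 and Mcam were under the filter, at 0.05 to 1.03 RPKM in the 6 libraries. Libraries of the pair overlapped for all 8 members. In simulated data of this comparison, limma recovered 62.7% of genes changed by a log2 value of 2 and 10.45% of those changed by 1. The changes were added on the log2(RPKM + 1) scale to genes drawn at random from all those tested. A change of the smaller size on that scale would mostly have been missed among such genes. Recovery for genes as low as the members was not simulated apart.

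Il33+ WAT-MSC and lung Il33+ MSC were compared to ask how the stroma of the tissues differs. None of 6 members tested passed, where 6% of the 8554 genes tested passed in limma, 2.5% higher and 3.5% lower, and 2 had an unadjusted p under 0.05. Those were Mcam, lower in WAT with a log2 difference of -1.24 ± 0.36 and a limma adjusted p of 0.0815, and Des, higher in WAT by 0.82 ± 0.30 with 0.170. Neither gene's libraries overlapped, and the share of all genes tested without overlap was not counted. Mcam reached 1 RPKM in no Il33+ WAT-MSC library and in all 3 lung libraries, so it entered only through the lung. Pecam1 and Cdh5, markers of endothelial cells, were also higher in the lung libraries. Pecam1 was 6.04 to 12.9 RPKM in lung Il33+ MSC and 12.4 to 19.1 RPKM in lung epithelial cells, against 0.71 to 2.99 RPKM in the WAT-MSC. Cdh5, the cadherin of endothelial junctions, was 10.67 to 16.6 and 16.9 to 33.3 RPKM there, against 0.14 to 5.82 RPKM. Of 9 endothelial markers tested, 3 passed as lower in Il33+ WAT-MSC than in lung and none as higher, beside the shares of 3.5% and 2.5% above. The log2 difference was negative for 6 of the 9 and positive for 3. Kdr, Emcn and Esam had higher means in Il33+ WAT-MSC (3.04, 1.30 and 3.55 RPKM) than in lung Il33+ MSC (1.83, 1.06 and 3.03 RPKM). The part of endothelial markers in the level of Mcam was not tested. Acta2 gave -0.37 ± 0.41, Tagln -0.42 ± 0.31, Myl9 -0.25 ± 0.25 and Tpm2 0.13 ± 0.32, and the median of the 6 was -0.31 beside 0.03 over all genes tested.

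In the lung, the epithelial cells were compared with the Il33+ MSC. Myl9 and Tpm2 were lower in epithelial cells, 2 of 5 members tested, where 43% of the 9352 genes tested passed, 18.5% higher and 24.4% lower, a background too high for the count to say much of the members. Myl9 differed by -2.21 ± 0.31 with a limma adjusted p of 0.000343 and Tpm2 by -2.25 ± 0.36 with 0.000779. Tpm2 reached 1 RPKM in no epithelial library and in all 3 lung Il33+ MSC libraries, so it entered only through the group in which it is high and the count is a description. Acta2 (0.06 ± 0.57), Tagln (-0.66 ± 0.43) and Mcam (-0.31 ± 0.37) did not pass. Single libraries decided the values of Tagln and Acta2. Without epithelial replicate 3 Tagln passed, at -1.15 ± 0.33 with a limma adjusted p of 0.0253, and Acta2 stood at -0.58 ± 0.44, and without lung Il33+ MSC replicate 1 Acta2 stood at -0.33 ± 0.61. Myh11, Des and Cspg4 were under the filter. The members' median was -0.66, beside -0.13 over all genes tested. Median-ratio scaling moved the latter to 0.06, and the split of calls from 1734 higher and 2285 lower to 2096 higher and 1979 lower, and under it Myl9 and Tpm2 were at -1.99 and -2.13.

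Transcripts of Myh11 and Tpm2 were listed separately. For Myh11 they were NM_001161775 and NM_013607, and the second carries an additional exon near its end, number 41 of 42, that shortens the tail of the protein and sets the SM2 form of the heavy chain apart from SM1. The exon is shown because reads in it can tell the forms apart, with 28 coding bases followed by 11 bases that begin with the stop codon. The annotated transcripts are 6549 and 6214 bases long, so they differ elsewhere as well.
Myh11 exon of NM_013607, chr16:14198050-14198088, minus strand: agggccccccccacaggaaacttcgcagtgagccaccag
The transcripts kept a nearly fixed ratio. In the 12 libraries with at least 0.15 RPKM of the second, NM_001161775 was 1.31 to 1.40 times as high as NM_013607, with a median of 1.34. The ratio was 1.34 in each of the 3 endothelial libraries, although Myh11 itself differed between them. With a ratio so fixed, no statement on the balance of the forms is made.

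For Tpm2 the listed transcripts, NM_001277876 and NM_009416, differ among other places in exon 6 of 9, where either of 2 neighbouring exons of 76 coding bases is used. Their annotated lengths are 1164 and 2098 bases, so they also differ outside this exon, and their RPKM do not read exon 6 alone. The exons are shown side by side. Capitals mark the 35 bases that differ, and 41 of 76 are identical.
Tpm2 exon of NM_009416, chr4:43518644-43518719, minus strand: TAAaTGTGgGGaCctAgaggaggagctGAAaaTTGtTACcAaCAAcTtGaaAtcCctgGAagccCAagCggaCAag
Tpm2 exon of NM_001277876, chr4:43519003-43519078, minus strand: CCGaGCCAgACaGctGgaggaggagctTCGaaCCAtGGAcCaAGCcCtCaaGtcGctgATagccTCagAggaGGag
The Tpm2 transcripts varied without a shared pattern. The ratio of NM_001277876 to NM_009416 ran from 0.425 to 4.15 in the 11 libraries with at least 0.15 RPKM of the latter, and both ends of that range lay in stromal cells. In endothelial cells NM_001277876 was 0.26, 8.76 and 7.49 RPKM and NM_009416 was 0, 2.84 and 5.40 RPKM. Replicate 1 was thus low for both. In lung epithelial cells NM_009416 was at 0, 0 and 0.02 RPKM.

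**Figure D3:**
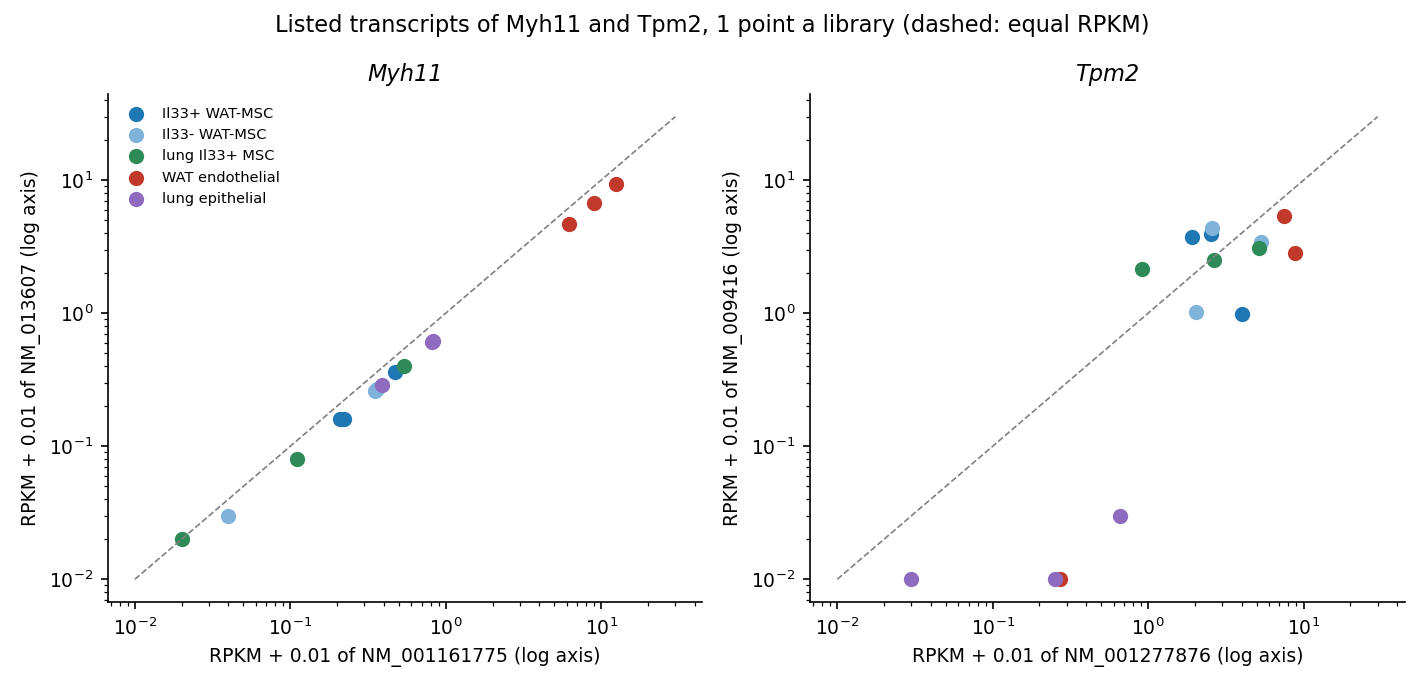
RPKM + 0.01 of the listed transcripts of Myh11 (left) and Tpm2 (right) on log axes, with 1 point a library coloured by population and a dashed line of equal RPKM. Myh11 points run parallel to the line, whereas Tpm2 points scatter on both sides of it and endothelial replicate 1 lies among the lung epithelial libraries.

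Members differed in how alike their patterns were over the 15 libraries. On log2(RPKM + 1), Pearson's r was 0.92 between Acta2 and Myh11, 0.90 between Acta2 and Tagln, and 0.93 between Des and Cspg4, but 0.01 between Myh11 and Tpm2 and -0.04 between Mcam and Tpm2. These values describe 15 libraries of 5 populations, which are not independent points. The genes most like Myh11 over the table were Gm16548, Syt15 and Tie1 (r of 0.98, 0.97 and 0.97), and those most like Mcam were Sox7, Clec14a and Ptprb (0.97, 0.94 and 0.94). Tie1, Sox7, Clec14a and Ptprb are known from endothelial cells. Acta2 was most like C130074G19Rik, Nfkbid and Tgtp1 (0.94 for each). Tagln was most like Acta2, Cmip and Clu (0.90, 0.89 and 0.89). Myl9 was most like Lrrc32, Wwtr1 and Ppp1r2 (0.97, 0.95 and 0.94), and Des like Procr, Rcan1 and Adam10 (0.96, 0.95 and 0.93). Cspg4 was most like Ctnnbip1, Des and Apbb2 (0.93, 0.93 and 0.92), and Tpm2 like Arhgdia, Akap2 and Dync1h1 (0.93 for each).

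A list of 20 other pericyte genes, of which 17 were in the table, was set beside the members. In WAT endothelial cells against Il33+ WAT-MSC, 3 of 16 tested were higher (Rgs5, Rgs4 and Gucy1a3) and none lower, with a median log2 fold change of 0.23. Of all genes tested in this comparison, 3.34% were higher and 0.565% lower. Rgs5, which restrains G protein signalling and is a widely used pericyte gene, was 209, 215 and 141 RPKM in endothelial cells. It was 8.29, 16.4 and 11.1 RPKM in Il33+ WAT-MSC. Il33- WAT-MSC held 1.80, 4.55 and 6.83 RPKM, and it was at most 1.19 RPKM in both lung populations. The endothelial libraries stood far above all others, with a log2 fold change of 3.89 ± 0.32 against Il33+ WAT-MSC and a limma adjusted p of 0.000401. Rgs4 and Gucy1a3, a subunit of the nitric oxide receptor, changed by 3.26 ± 0.39 and 3.10 ± 0.44 (adjusted p = 0.00218 and 0.00576). Without endothelial replicate 1 the count was 5. Rgs4 reached 1 RPKM in no Il33+ WAT-MSC library and entered only through the endothelial cells. Against Il33- WAT-MSC, 4 of 16 tested were higher, Abcc9 beside these 3, and Vtn, Enpep and Aoc3 were lower, of which none passed without Il33- WAT-MSC replicate 2 or without replicate 3. Without endothelial replicate 1 the higher count there was 6. Rgs4 and Gucy1a3 reached 1 RPKM in only 1 Il33- WAT-MSC library each and in all 3 endothelial ones. They entered the test through the endothelial libraries, so the higher count is a description. With all libraries of the pair, 4.1% of all genes tested were higher and 1.6% lower.

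Pdgfrb, the PDGF receptor of mural cells, was not highest in the endothelial cells, at 8.73 to 17.0 RPKM there and 8.08 to 26.4 RPKM in the WAT-MSC. Notch3 was 1.53, 7.48 and 6.81 RPKM in endothelial cells and at most 2.56 RPKM elsewhere, and Gja4 was 0.04, 4.15 and 8.16 RPKM in endothelial cells, so that both had their highest mean there but replicate 1 was again the low library. Pdgfrb and Gja4 were named after their values were seen.

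The genes of a potassium channel differed between stromal populations, Abcc9 among all 3 and Kcnj8 between lung and WAT-MSC. Abcc9 and Kcnj8 encode the sulfonylurea receptor and the pore of the ATP-sensitive channel of pericytes and vascular smooth muscle. Abcc9 was 19.15, 17.6 and 20.7 RPKM in Il33+ WAT-MSC but 1.29, 1.70 and 1.77 RPKM in Il33- WAT-MSC. It reached 93.0, 77.02 and 83.8 RPKM in lung Il33+ MSC, above 14.5, 14.2 and 17.4 RPKM in WAT endothelial cells. No libraries of the 3 stromal populations overlapped. The log2 fold change of Il33+ over Il33- WAT-MSC was 2.96 ± 0.27 with a limma adjusted p of 0.00126, and that of Il33+ WAT-MSC over lung Il33+ MSC was -2.09 ± 0.18 with 0.000147. Kcnj8 was 14.8, 23.4 and 17.5 RPKM in lung Il33+ MSC and at most 2.62 RPKM in the WAT-MSC, a difference of -3.35 ± 0.42 between Il33+ WAT-MSC and lung (adjusted p = 0.00104). The pore gene was thus low in Il33+ WAT-MSC where the receptor gene was not.

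Further pericyte genes moved between the stromal populations in both directions. Vtn, which encodes vitronectin, was lower in Il33+ than in Il33- WAT-MSC by a log2 difference of -2.36 ± 0.30 (limma adjusted p = 0.0037), so that 1 of 12 tested was higher and 1 lower. The shares over all genes tested were 0.923% higher and 0.651% lower. Relative to lung Il33+ MSC, in Il33+ WAT-MSC 3 of 13 were higher (Rgs5, Aoc3 and Vtn) and 3 lower (Kcnj8, Abcc9 and Angpt1). Between these tissues 2.5% of all genes tested were higher and 3.5% lower. Rgs5 and Vtn stood under 1 RPKM in every lung Il33+ MSC library and entered only through Il33+ WAT-MSC. The count is thus a description. Aoc3, an amine oxidase of smooth muscle and adipose cells, was 80.1 to 93.0 RPKM in Il33+ WAT-MSC and 14.3 to 19.3 RPKM in lung Il33+ MSC (2.33 ± 0.19, adjusted p = 0.000118). Angpt1, a ligand of the endothelial Tie2 receptor, was 0.61 to 1.71 RPKM in the former and 7.71 to 9.94 RPKM in the latter (-2.10 ± 0.30, adjusted p = 0.00212). In lung epithelial cells, 8 of 11 tested were lower than in lung Il33+ MSC and none higher, led by Abcc9 (-4.40 ± 0.43) and Kcnj8 (-3.72 ± 0.37). There, 24.4% of all genes tested were lower and 18.5% higher. Ndufa4l2 reached 1 RPKM in no epithelial library and entered only through lung Il33+ MSC. Kcnj8 and Aoc3 reached it in 1 epithelial library each, so this count is a description too. Anpep, the surface enzyme CD13, had the highest mean of the list and was 56.6 to 145 RPKM in the WAT-MSC and 30.4 to 81.3 RPKM in endothelial cells.

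**Figure D4:**
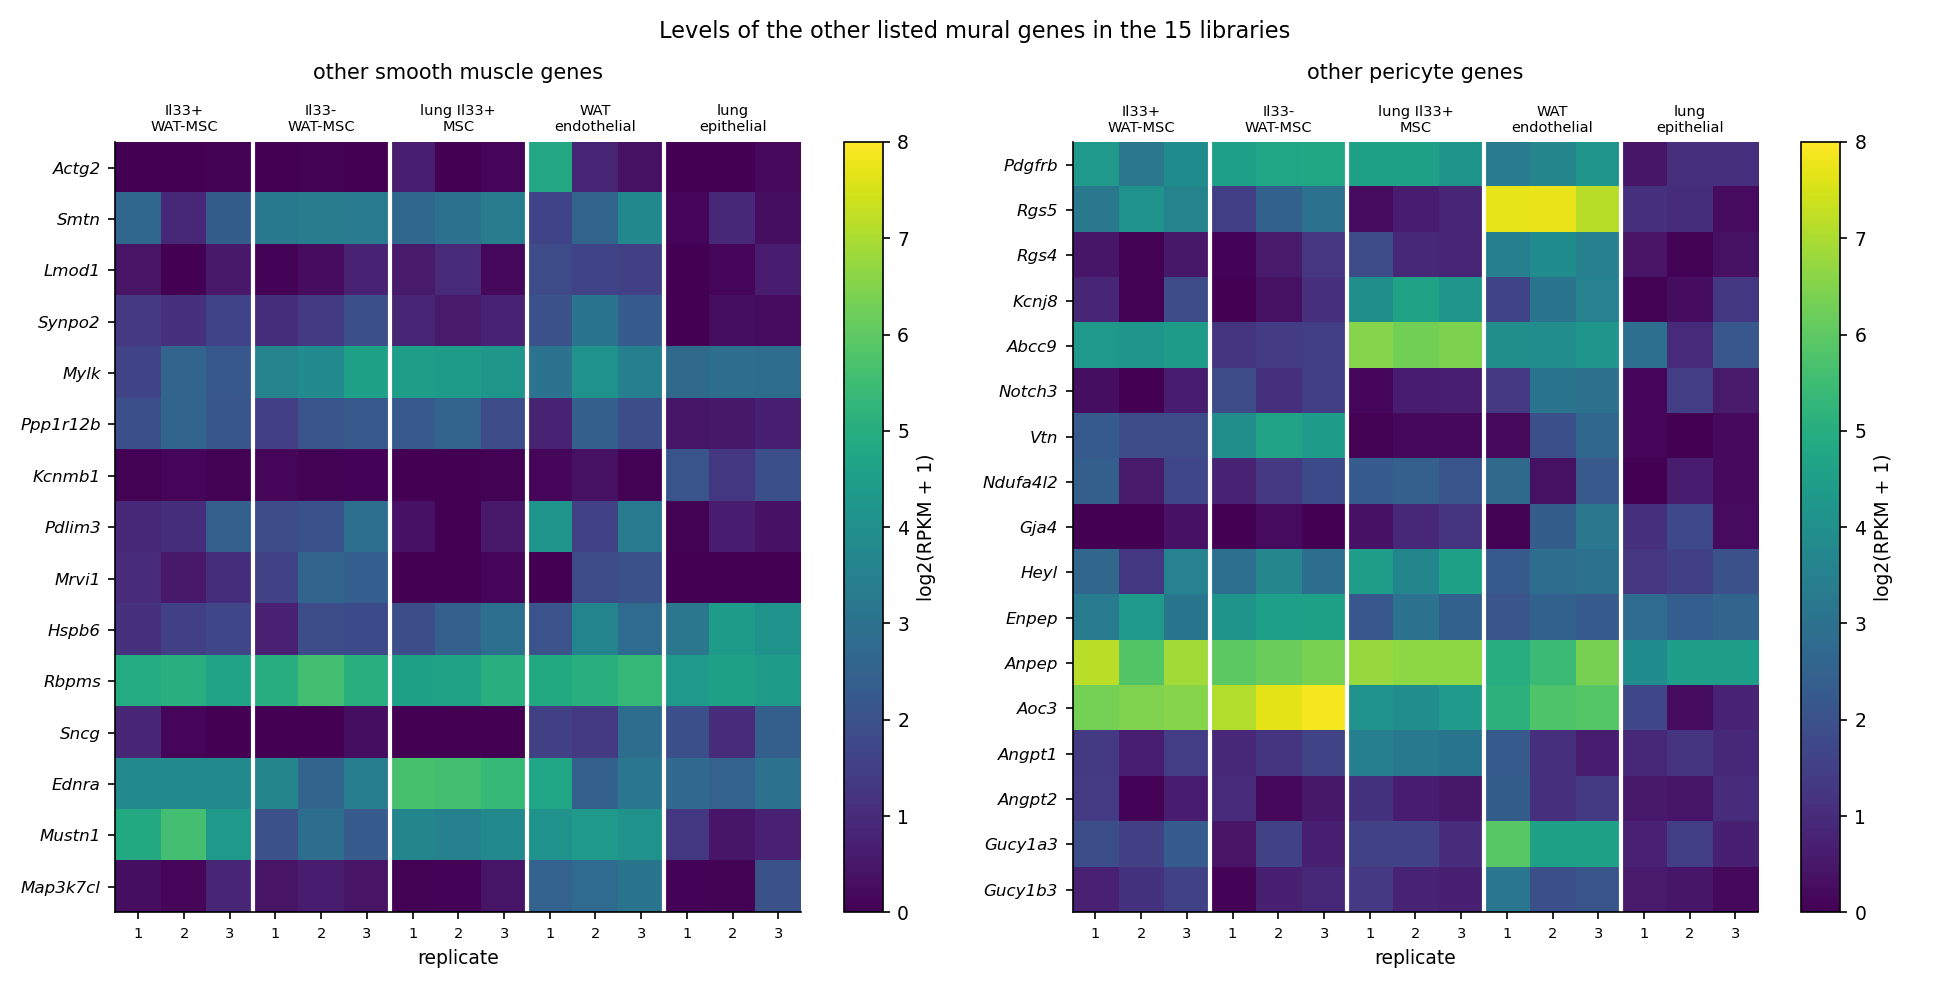
Levels, as log2(RPKM + 1) on a colour scale from 0 to 8, of the 15 listed other smooth muscle genes (left) and 17 listed other pericyte genes (right), with 1 column a library in order of replicate number within each population. Rgs5 is brightest in endothelial cells, Abcc9 and Kcnj8 in lung Il33+ MSC, and Aoc3 in Il33- WAT-MSC.

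A list of 21 other smooth muscle genes, 15 of them in the table, was examined in the same way. Against Il33+ WAT-MSC, 1 of 13 tested was higher in endothelial cells (Map3k7cl, 2.38 ± 0.42, limma adjusted p = 0.015) and none lower, with a median log2 fold change of 1.10. In this comparison 3.34% of all genes tested were higher. Map3k7cl was lost without endothelial replicate 2 (adjusted p = 0.0684) and without Il33+ WAT-MSC replicate 1 (0.103), 2 (0.0811) or 3 (0.0556), when no gene of the list passed, and without endothelial replicate 1 the count was 3. Against Il33- WAT-MSC, 2 of 13 were higher (Map3k7cl and Mustn1), where 4.1% of all genes tested were higher. The count was 3 without endothelial replicate 1, 1 without endothelial replicate 2 or Il33- WAT-MSC replicate 1 or 2, and none without Il33- WAT-MSC replicate 3. In the fit of all 15 libraries 4 were higher in each of these comparisons. Map3k7cl reached 1 RPKM in no WAT-MSC library and entered only through the endothelial cells. Rbpms, an RNA-binding regulator of smooth muscle splicing, had the highest mean of the list and was between 18.9 and 46.4 RPKM in all 15 libraries.

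Actg2, the γ-actin of visceral smooth muscle, was 27.3 RPKM in endothelial replicate 1 but 0.77 and 0.27 RPKM in replicates 2 and 3, and at most 0.60 RPKM in the 12 other libraries. Only 1 endothelial library was thus high, and it was the one in which Tpm2, Gja4 and the mesothelial markers were low. Acta2 was 17.96, 17.92 and 13.91 RPKM in the same libraries, and did not follow that pattern. Endothelial replicate 1 also had the largest share of transcripts at 0 RPKM, 10.9%. What this share did to the genes that were low in it was not tested. The coding sequences of Acta2 and Actg2 are 84.4% identical, with 1 codon of Acta2 left out, and share no run longer than 29 bases. Actg2 was named after its values were seen, and was under the filter. Without endothelial replicate 1, the endothelial counts of members were 3 and 5, as given above for the first and with Myl9 added in the second.

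Within the stroma, smooth muscle genes went both ways. Mustn1, a small nuclear protein of the muscle and skeletal lineages, was 27.8, 48.3 and 18.9 RPKM in Il33+ WAT-MSC and 2.92, 6.41 and 3.87 RPKM in Il33- WAT-MSC. Mylk, the kinase that phosphorylates the myosin light chain, was 2.15, 5.05 and 3.58 RPKM in the first and 10.9, 13.6 and 22.65 RPKM in the second. Neither pair of groups overlapped. The log2 fold change was 2.55 ± 0.37 for Mustn1 and -1.85 ± 0.35 for Mylk, with limma adjusted p of 0.00622 and 0.026, and these were the 2 of 10 tested that passed. The share of all genes tested that passed was 1.57%. With no filter neither Mustn1 nor Mylk passed (adjusted p of 0.0561 and 0.107). Mylk did not pass without Il33+ WAT-MSC replicate 1 (adjusted p = 0.0965) or 3 (0.0845), or without Il33- WAT-MSC replicate 2 (0.0845) or 3 (0.117). In lung Il33+ MSC Mylk was 21.3, 20.3 and 17.7 RPKM, and Il33+ WAT-MSC were lower by a log2 difference of -2.22 ± 0.27 (limma adjusted p = 0.00098). Ednra, the endothelin receptor of smooth muscle, was 12.9 to 13.25 RPKM in Il33+ WAT-MSC and 39.95 to 49.5 RPKM in lung Il33+ MSC (-1.71 ± 0.19, adjusted p = 0.000477). Mustn1 was higher in Il33+ WAT-MSC than in lung (1.26 ± 0.31, adjusted p = 0.037), but passed in 4 of 14 alternatives. It was lost with no filter, the replicate block, lane as a factor, the fit of all 15 libraries and median-ratio scaling, without lung Il33+ MSC replicate 1 (0.116), 2 (0.155) or 3 (0.073) and without Il33+ WAT-MSC replicate 1 (0.0832) or 2 (0.0517). In lung epithelial cells against lung Il33+ MSC, 3 of 9 tested were higher, led by Sncg and Kcnmb1, and 5 lower, led by Mustn1 and Ednra, where 18.5% of all genes tested were higher and 24.4% lower. Under the stricter filter 1 was higher and 4 lower. Sncg and Kcnmb1 reached 1 RPKM in no lung Il33+ MSC library and entered only through the epithelial cells. Smtn and Ppp1r12b reached 1 RPKM in no epithelial library and entered only through lung Il33+ MSC. Both counts are thus a description. Sncg was listed at 0 in all 3 lung Il33+ MSC libraries and at 1.00 to 4.41 RPKM in lung epithelial cells.

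**Figure D5:**
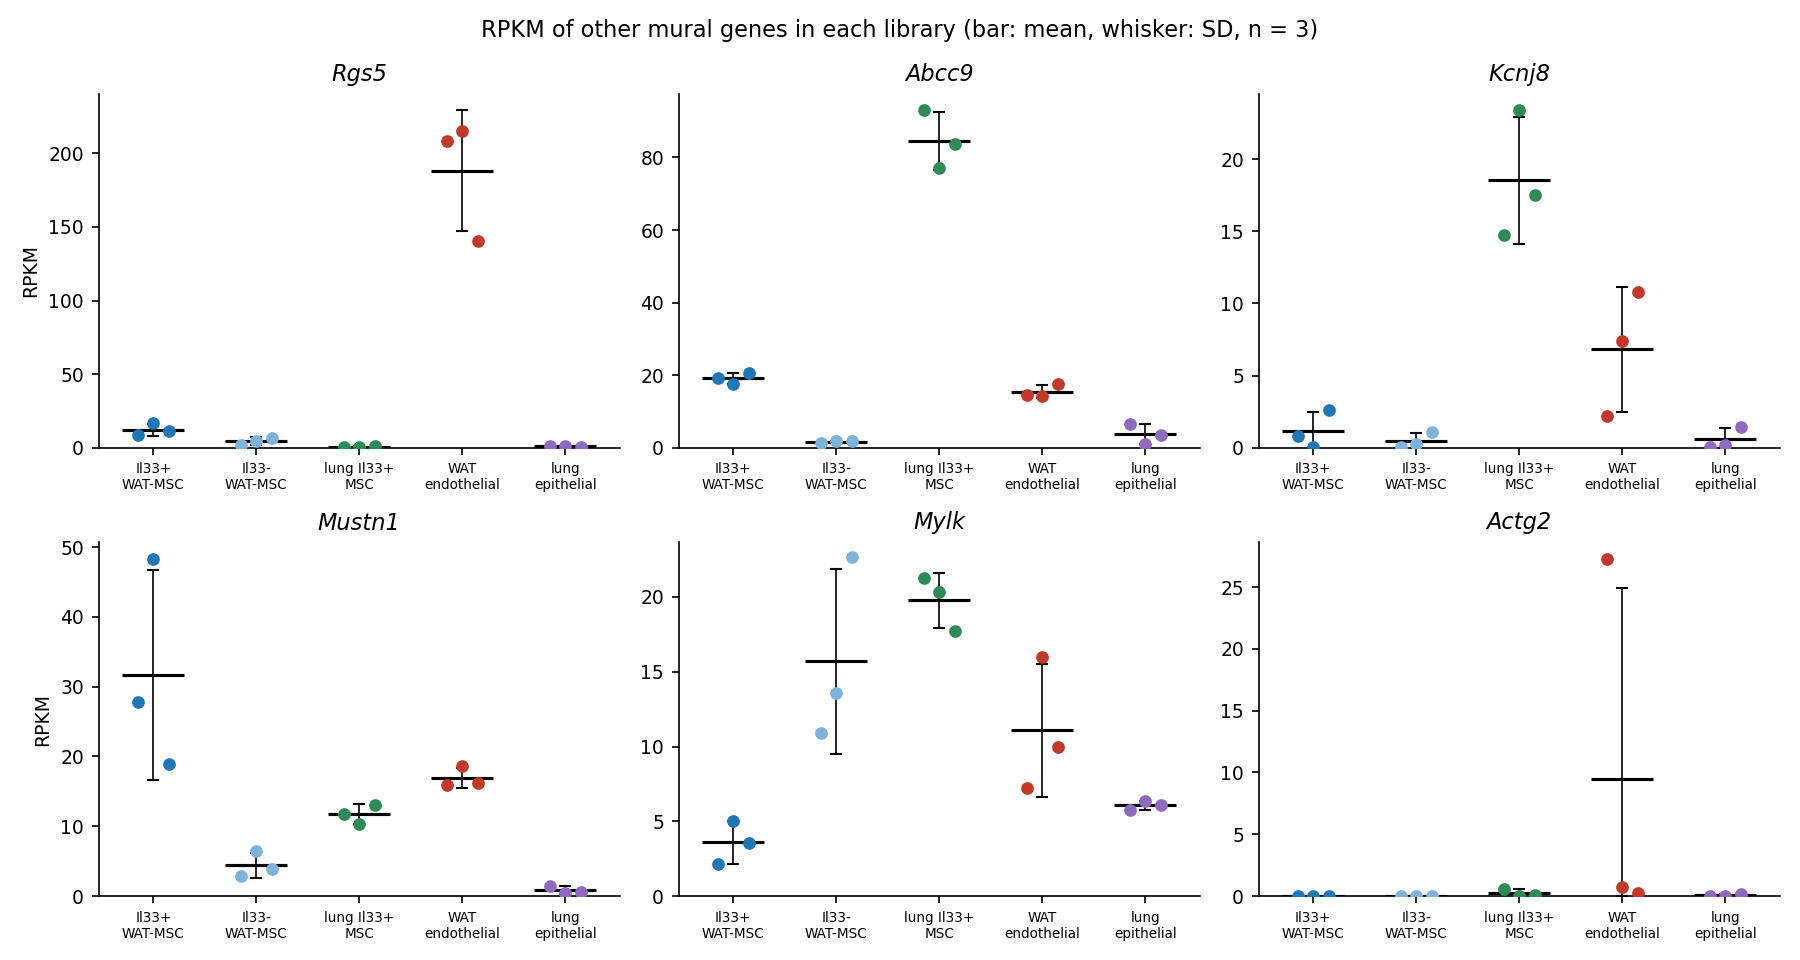
RPKM (linear axes from 0, a different scale in each panel) of 6 genes outside the member list, with points for libraries in order of replicate number, bars for means and whiskers for SDs (n = 3, lower whisker stopped at 0). Rgs5 is high in the 3 endothelial libraries, Abcc9 and Kcnj8 are highest in lung Il33+ MSC, Mustn1 is high and Mylk low in Il33+ WAT-MSC, and Actg2 is high in 1 endothelial library.

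The actin, myosin and associated cytoskeletal genes that most cells use, a list of 20 that was wholly in the table, were far more abundant than the members. They summed to 1321 to 1686 RPKM in Il33+ WAT-MSC and to 1498 to 2082 RPKM in endothelial cells, led by Actb, Actg1 and Tagln2. None of 20 passed between Il33+ and Il33- WAT-MSC, where 1.57% of all genes tested did. Against Il33+ WAT-MSC, 3.34% of all genes tested were higher in endothelial cells. Of the 20, 2 were higher there, the α-actinin gene Actn1 (1.79 ± 0.41, limma adjusted p = 0.0469) and the non-muscle myosin gene Myh9 (1.44 ± 0.28, 0.0269). Neither passed without endothelial replicate 2 or 3 or without any 1 Il33+ WAT-MSC library, with adjusted p of 0.0748 to 0.166 for Actn1 and 0.0509 to 0.132 for Myh9, and without endothelial replicate 1 the count was 3. Actn1 was also lost with a pseudocount of 0.1 (adjusted p = 0.0668), no filter (0.0776), the replicate block (0.0597), lane as a factor (0.0732) and the most abundant transcript (0.1), and the fit of all 15 libraries gave 4 higher. None of 20 passed against Il33- WAT-MSC, but 4 did under median-ratio scaling, 4 in the fit of all 15 libraries, 3 with the replicate block, 2 without endothelial replicate 1, and 1 each with lane as a factor and with the most abundant transcript. Before these changes of setting, 5.69% of all genes tested passed. Compared with lung Il33+ MSC, 5 of 20 were lower in Il33+ WAT-MSC, led by Csrp1 (-1.89 ± 0.22, adjusted p = 0.000712) and Actg1 (-1.20 ± 0.23, 0.0126). The count was 1 without lung Il33+ MSC replicate 2, and 2 without lung Il33+ MSC replicate 3 or Il33+ WAT-MSC replicate 1. With no library left out, 3.5% of all genes tested were lower in Il33+ WAT-MSC than in lung. In lung epithelial cells 10 of 20 were lower than in lung Il33+ MSC, led by Zyx (-2.34 ± 0.24) and Myh10 (-2.34 ± 0.29), and 1 was higher, Actn1 (1.64 ± 0.28), where 24.4% of all genes tested were lower and 18.5% higher.

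Of 14 regulators of contractile genes, 13 were in the table, and Myocd, which encodes myocardin, was not analysed here. Mkl2, a myocardin-related partner of SRF, was 22.6, 22.5 and 19.99 RPKM in endothelial cells, 5.38 to 7.28 RPKM in Il33+ WAT-MSC and 5.66 to 8.91 RPKM in Il33- WAT-MSC. It was the 1 regulator that was higher in endothelial cells than in Il33+ WAT-MSC (1.60 ± 0.29, limma adjusted p = 0.0179) and than in Il33- WAT-MSC (1.40 ± 0.31, 0.0322). It did not pass against the former without endothelial replicate 2 (0.092) or without Il33+ WAT-MSC replicate 1 (0.0784), 2 (0.0764) or 3 (0.088), or with the most abundant transcript (0.0631), and against the latter it passed in 8 of 14 alternatives. Against the latter it was lost without endothelial replicate 2 (0.124) or 3 (0.0552) and without Il33- WAT-MSC replicate 1 (0.0993), 2 (0.104) or 3 (0.117), and with the most abundant transcript (0.158). Of all genes tested, 3.34% were higher in endothelial cells than in Il33+ WAT-MSC and 4.1% than in Il33- WAT-MSC. Srf itself was 3.63, 8.14 and 12.8 RPKM in endothelial cells and 29.2, 38.1 and 27.9 RPKM in lung Il33+ MSC, against 12.8, 7.26 and 15.4 RPKM in Il33+ WAT-MSC. Lung Il33+ MSC did not overlap with the other populations, with a log2 difference of -1.39 ± 0.28 between Il33+ WAT-MSC and lung (limma adjusted p = 0.0133), which was lost without lung Il33+ MSC replicate 2 (0.0852) and in the fit of all 15 libraries (0.0572). Klf4, a factor that opposes contractile genes in smooth muscle, had the highest mean of the list, at 260 to 423 RPKM in the WAT-MSC and 135 to 338 RPKM in endothelial cells. In lung epithelial cells Klf4 was lower than in lung Il33+ MSC (-3.66 ± 0.22) and Klf5 higher (2.78 ± 0.36), among 6 lower and 1 higher of 13, beside the same background.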

How the data were processed

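RNA of 15 libraries was amplified with the Ovation RNA-seq System V2, and whether strand was kept is not stated. Reads were aligned to mm10 with TopHat2 and quantified in Partek, per the labels. The deposited values are RPKM per RefSeq transcript, computed by the authors (12698 transcripts, 10222 symbols). How reads shared by transcripts were divided, and how transcripts were chosen for the table, is not given in the sources used here.

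RPKM were added per symbol. Genes with at least 1 RPKM in at least 3 of the 6 libraries compared were fitted as log2(RPKM + 1) with limma 3.58.1 (R 4.3.3), moderated with Benjamini-Hochberg adjustment over all genes tested and called at an adjusted p under 0.05. The fit was tested on simulated data. Tables and figures were made with Python 3.11.15, pandas 2.3.3 and matplotlib 3.10.9. Comparisons share libraries: Il33+ WAT-MSC enter 3, and endothelial cells and lung Il33+ MSC 2 each. The members and lists were chosen with earlier results of these data known. Named beside the members were, from each list, the 3 genes of highest mean, the 2 of largest change in each direction per comparison, list genes where 5 or fewer passed, and the 3 genes most like a member. Alternatives were a pseudocount of 0.1, no filter, a filter of 3 RPKM, the replicate number as a block, lane as a factor, one fit of all 15 libraries, scaling by the median ratio, the most abundant transcript and leaving out each library. Promoter windows are from RefSeq (GRCm38.p6) and exons from GENCODE. Cnn1 was not analysed.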

Additional observations from a re-analysis of the deposited data

How the results depend on the processing

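Each comparison was refitted under 14 alternatives. Acta2, Myh11 and Mcam stayed past the threshold in both endothelial comparisons under all 14, and Myl9 in the lung under all 14. Leaving out 1 library gave counts of members from 0 to 0 between Il33+ and Il33- WAT-MSC and between the stroma of the tissues, from 3 to 3 and from 3 to 5 for endothelial cells against Il33+ and Il33- WAT-MSC, and from 2 to 3 in the lung. With the most abundant transcript of each gene the lung count was 1, since fewer members were then tested, and Tpm2 turned to 0.34 and 0.21 (log2) in the endothelial comparisons. With 1 library left out, Tpm2 ranged there from -0.74 to 0.99 and from -0.77 to 0.97, from -0.40 to 0.24 between Il33+ and Il33- WAT-MSC and from -0.17 to 0.42 between the tissues. Acta2 ranged from -0.11 to 0.44 and Des from -0.21 to 0.47 between Il33+ and Il33- WAT-MSC, and in the lung Acta2 ranged from -0.58 to 0.43 and Mcam from -0.52 to 0.054. None of these turned values had passed, and the cause was not tested.

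Deviations of samples with equal replicate number were weakly correlated, from -0.07 to 0.15, with 4 of 15 pairs over 0.1, so the numbers were not taken as pairs. In 11 of 15 pairs the correlation was above every one with another number, a hint from the data and not from the design. All 4 correlations over 0.1 were of replicate 3, which was in lane 2 in every population. Replicate number and lane could not be told apart there. The replicate block left the counts of members at 0, 0, 3, 4 and 2. Over all genes it gave 143 higher and 89 lower between Il33+ and Il33- WAT-MSC, beside 78 and 55, and without the filter these were 31 and 14. One fit of all 15 libraries gave 466 higher and 339 lower for endothelial cells against Il33+ WAT-MSC, beside 289 and 49, 569 and 461 against Il33- WAT-MSC, beside 357 and 139, and 139 and 197 between the tissues, beside 214 and 299. Without endothelial replicate 2 or 3 the counts against Il33+ WAT-MSC were 149 and 1, and 250 and 168, and without Il33+ WAT-MSC replicate 1, 2 or 3 they were 129 and 2, 162 and 1, and 150 and 1. Against Il33- WAT-MSC they were 209 and 51, and 284 and 237, and without Il33- WAT-MSC replicate 1, 2 or 3 they were 189 and 66, 198 and 24, and 204 and 30. Each listed member had a mean under 3 RPKM in lung epithelial cells, and such low values depend most on the pseudocount. In simulated data of endothelial cells against Il33+ WAT-MSC, 5.97% of genes changed by 1 on the log2(RPKM + 1) scale were recovered. These genes were drawn at random from all those tested.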
